A study of Mus musculus with 14 samples.

Results

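The genes described here encode the machinery that stores transmitter in vesicles and fuses those vesicles with the plasma membrane. They were chosen by symbol, whatever their values: the synaptotagmins, the Snap25 relatives and the clathrin adaptor Snap91, the syntaxins and their binding proteins, the Vamp proteins, the synapsins, Rab3, the complexins, the Rims, Sv2, synaptophysin and the Munc13 proteins. These 13 families gave 70 genes of the 18193 with a usable probe set on the array. Of these 70 members, 48 passed the filter on dim signal and were tested, out of 10295 genes tested in all. The other 22 stayed too dim to test.

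At a synapse, a vesicle carrying Vamp2 meets Snap25 and Stx1a on the plasma membrane, and these SNARE proteins coil together and pull the membranes into contact. Synaptotagmins sense the calcium that triggers fusion, complexins hold and then release the partly coiled SNAREs, Munc13 and Rim proteins prepare vesicles at the active zone, and synapsins tether the reserve. Cortical neurons begin to make many of these proteins soon after their last division, before they form mature synapses, while other syntaxins and Vamps serve the Golgi and endosomes of every cell.

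The cells came from the neocortex of CD1 mouse embryos. A plasmid carrying either Fezf2 with GFP (Fezf2GFP) or GFP alone (CtrlGFP) was put into the ventricular lining by in utero electroporation at E14.5, and the green cells were sorted by FACS 24 h or 48 h later. All 4 groups had thus been electroporated and sorted in the same way, with 3 arrays for each vector at 24 h and 4 arrays for each vector at 48 h. Fezf2 is a zinc finger transcription factor known for directing deep-layer cortical neurons towards a subcerebral identity. The labels name neither the promoter of the plasmids nor the number of embryos behind an array, and nothing says that arrays came from separate litters. The p-values therefore measure the spread between these samples, which may be partly technical.

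Every value is a log2 expression value from the authors' GCRMA processing, in which 1 unit is a 2-fold difference and values at or below 4 are treated as dim. Array medians lay between 3.26 and 3.50, and arrays of a group correlated at 0.942 to 0.993. CtrlGFP 24 h replicate 1 and CtrlGFP 48 h replicate 2 stood apart from their groups, and their deviations from the group means correlated at 0.593 across genes, which are not independent. The 1 Fezf2 probe set did not follow the labels. It read 10.82, 11.54 and 11.54 with CtrlGFP at 24 h against 9.31, 9.50 and 9.52 with Fezf2GFP, and 10.65, 9.63, 10.44 and 9.87 with CtrlGFP at 48 h against 10.25, 8.67, 8.93 and 9.48 with Fezf2GFP. The log2 difference was -1.86 at 24 h (SE 0.38, limma adjusted p = 0.0324) and -0.82 at 48 h (SE 0.33, limma adjusted p = 0.239). It is not stated if that probe set reads the plasmid's transcript, so every direction between vectors below belongs to the arrays as they are labelled.

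Between the vectors, few members changed. Cplx2 was higher in the arrays labelled Fezf2GFP at 24 h and at 48 h, Syt13 and Syt9 were higher at 48 h, and Syn2 was lower at 24 h. At 24 h, 1 of 48 tested members passed as higher and 1 as lower, while 1.06% of all genes tested passed, 0.806% as higher and 0.253% as lower. At 48 h, 3 passed as higher and 0 as lower, while 3.13% of all genes passed, 2.7% as higher and 0.427% as lower. Syt13, 1 of these 3, entered the test only through arrays labelled Fezf2GFP, with which it is high. With 1 to 3 members called, these counts do not set the genes apart from the background. Passing means a Benjamini-Hochberg adjusted p under 0.05 in limma, over all genes tested.

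The windows upstream of Cplx2, Syt9 and Syn2 are shown because these members carry the difference between vectors. Each is the RefSeq promoter of build GRCm38.p6, from 250 bases before to 50 bases after the gene's start, 5′ to 3′ on the gene's strand. Capitals mark matches on either strand to the E-box CAGCTG or to the GC box GGGCGG. The table used here has no window for Syt13.
Cplx2, chr13:54302306-54302605, plus strand: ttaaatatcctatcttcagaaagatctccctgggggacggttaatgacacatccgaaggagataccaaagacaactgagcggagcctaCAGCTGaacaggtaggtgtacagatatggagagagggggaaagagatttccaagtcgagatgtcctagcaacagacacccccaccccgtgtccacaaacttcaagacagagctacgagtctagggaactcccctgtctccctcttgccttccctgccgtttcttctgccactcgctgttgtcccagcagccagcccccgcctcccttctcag
Syt9, chr7:107370540-107370839, plus strand: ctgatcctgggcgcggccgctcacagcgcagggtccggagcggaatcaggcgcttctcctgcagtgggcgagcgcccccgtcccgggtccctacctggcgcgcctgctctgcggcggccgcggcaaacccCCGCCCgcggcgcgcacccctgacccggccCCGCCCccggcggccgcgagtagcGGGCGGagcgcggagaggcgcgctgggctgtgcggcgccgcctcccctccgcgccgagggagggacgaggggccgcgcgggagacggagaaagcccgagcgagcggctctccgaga
Syn2, chr6:115134652-115134951, plus strand, the more upstream of 2 starts: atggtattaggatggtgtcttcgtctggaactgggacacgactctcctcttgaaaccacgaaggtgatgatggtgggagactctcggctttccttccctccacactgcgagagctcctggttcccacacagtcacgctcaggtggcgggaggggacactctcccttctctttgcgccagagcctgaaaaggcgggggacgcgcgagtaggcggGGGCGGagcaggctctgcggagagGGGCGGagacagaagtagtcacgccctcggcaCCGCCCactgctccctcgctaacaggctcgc
The Cplx2 window held 1 CAGCTG and no GGGCGG, whereas the Syt9 and Syn2 windows held 3 GC boxes each and no CAGCTG. These matches describe the letters only.

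Cplx2 encodes complexin 2, a small cytosolic protein that binds assembled SNAREs. It read 8.48, 8.39 and 8.67 with CtrlGFP at 24 h and 9.88, 9.76 and 9.65 with Fezf2GFP. At 48 h it read 8.25, 9.18, 8.74 and 8.24 with CtrlGFP and 10.54, 10.02, 10.40 and 10.51 with Fezf2GFP. The groups did not overlap at either time, and CtrlGFP 48 h replicate 2 was the highest control. The log2 difference was 1.25 at 24 h (SE 0.24, 2.38-fold, limma adjusted p = 0.0224) and 1.76 at 48 h (SE 0.21, 3.39-fold, limma adjusted p = 0.000481). The change in this difference between the times was 0.51 on the log2 scale, with a 95% interval from -0.17 to 1.20 (limma adjusted p = 0.998). Another probe set of the gene gave 2.96 and 3.21, which passed at both times over all probe sets. A further probe set, above the dim level on 11 arrays, gave 0.62 and 2.51, which did not pass. The 24 h call ended on leaving out any 1 of the 3 CtrlGFP or 3 Fezf2GFP arrays of that time, with adjusted p from 0.0576 to 0.118. It also ended with quantile normalization, with the trend on gene span removed, with the mean of all probe sets and with the probe set without a suffix. The 48 h call held in 25 of 26 alternatives and ended with the probe set without a suffix (2.51, limma adjusted p = 0.275).

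Syt13 encodes an atypical synaptotagmin whose C2 domains lack the residues that bind calcium in other members. With CtrlGFP it read 2.96, 3.17 and 2.94 at 24 h and 2.72, 3.29, 2.50 and 2.51 at 48 h. The Fezf2GFP arrays gave 4.06, 3.32 and 3.98 at 24 h and 3.99, 4.78, 4.75 and 5.93 at 48 h. All 7 control arrays were dim, and the 48 h groups were apart, with 3 of 4 arrays labelled Fezf2GFP above the dim level. The 48 h difference was at least 1.82-fold, counted from the dim level (limma adjusted p = 0.00441). At 24 h the log2 difference of 0.76 did not pass (SE 0.39, limma adjusted p = 0.647). Syt13 lay above the dim level on 4 arrays, all labelled Fezf2GFP, so it entered the test only through the group in which it is high. With a dim level of 6 it was not tested, and a second probe set was dim on every array.

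Syt9 encodes a calcium-binding synaptotagmin that can serve as a fast release sensor. It read 6.38, 6.62 and 6.28 with CtrlGFP at 24 h and 7.28, 6.33 and 7.22 with Fezf2GFP, and these groups overlapped. At 48 h it read 5.51, 4.06, 5.35 and 5.30 with CtrlGFP and 6.26, 6.37, 6.75 and 6.67 with Fezf2GFP, and these did not. The 48 h difference was 1.46 on the log2 scale (SE 0.31, 2.75-fold, limma adjusted p = 0.0213), and the 24 h difference of 0.52 did not pass (limma adjusted p = 0.702). Between the times Syt9 fell by 1.37 with CtrlGFP (SE 0.33, limma adjusted p = 0.015), while its change of -0.44 with Fezf2GFP did not pass (limma adjusted p = 0.481). The difference between these changes, 0.94, did not pass either (limma adjusted p = 0.998). The vector call ended without Fezf2GFP 48 h replicate 3 (adjusted p = 0.058) and without Fezf2GFP 48 h replicate 4 (0.0627), and the fall with CtrlGFP ended without CtrlGFP 24 h replicate 2 (0.0634). The vector call also ended in a fit of only the groups compared (0.0685) and when dim genes were kept in the test (0.0501), and the fall in a fit of only the groups compared (0.0634).

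Syn2 encodes synapsin II, a phosphoprotein of the vesicle surface. It read 9.66, 10.19 and 9.45 with CtrlGFP at 24 h, against 8.70, 8.81 and 8.41 with Fezf2GFP at 24 h. At 48 h it read 8.74, 8.69, 8.94 and 8.40 with CtrlGFP and 8.91, 8.84, 8.54 and 8.61 with Fezf2GFP. The 3 CtrlGFP arrays at 24 h stood above all the others, whose values overlapped. Syn2 was lower with Fezf2GFP at 24 h by a log2 difference of -1.13 (SE 0.21, 2.19-fold, limma adjusted p = 0.0213), and at 48 h the difference was 0.03 (limma adjusted p = 0.958). It fell with time by 1.07 with CtrlGFP (SE 0.20, limma adjusted p = 0.00341), and its change of 0.09 with Fezf2GFP did not pass (limma adjusted p = 0.863). The fall was -0.59 and did not pass with the mean of its probe sets (0.226), the other bright ones giving -0.52 and -0.19. The vector call ended without CtrlGFP 24 h replicate 2 (adjusted p = 0.0995), without Fezf2GFP 24 h replicate 1 (0.0774) and without Fezf2GFP 24 h replicate 3 (0.1). The vector call also ended in a fit of only the groups compared (0.118) and with the mean of its probe sets (-0.91, 0.29). Leaving out CtrlGFP 24 h replicate 1 and CtrlGFP 48 h replicate 2 together ended it as well (0.0547). Of the gene's other probe sets, those above the dim level gave -0.68 and -0.91 at 24 h and -0.45 and -1.07 at 48 h, none of which passed.

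**Figure D1:**
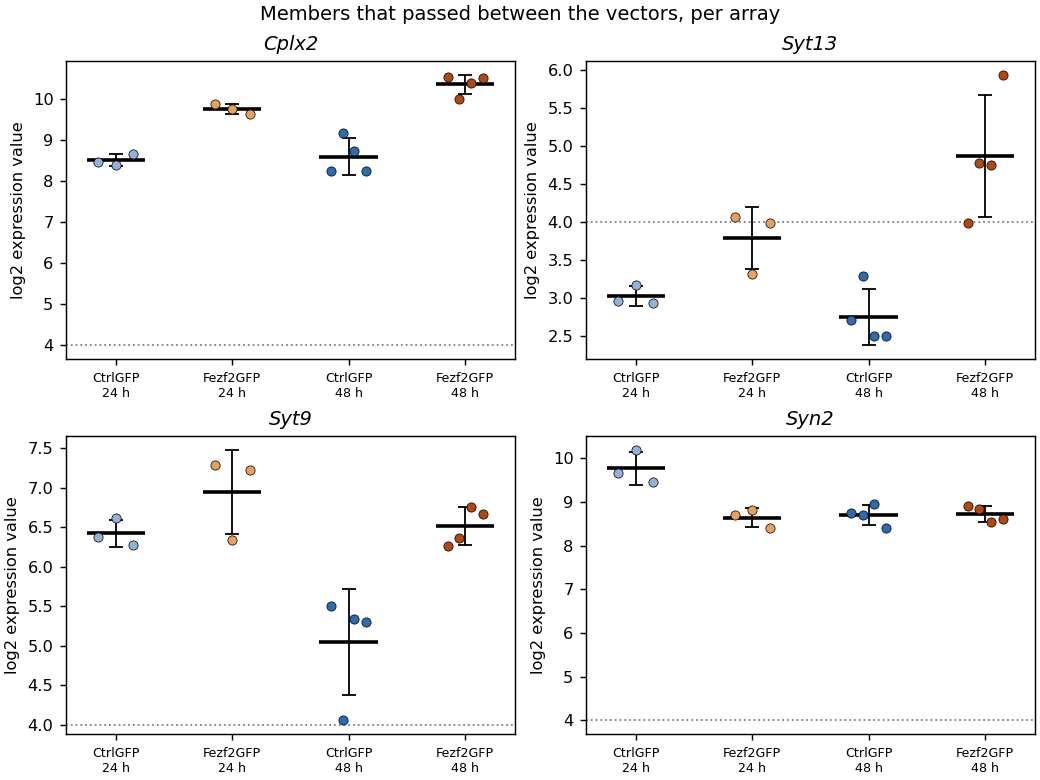
The 4 members that passed between the vectors, as log2 expression values of each array (points) by group, with the group mean (bar) and SD (error bar); the dotted line is the dim level of 4. Cplx2 is higher with Fezf2GFP at both times, Syt13 and Syt9 are apart at 48 h, and Syn2 is high in the CtrlGFP arrays at 24 h alone.

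The effect of the vector was not shown to differ between the times for any member. By limma, 0 of 48 passed the interaction of vector and time, against 0.0971% of all genes (0.068% as higher and 0.0291% as lower). At an unadjusted p under 0.05, 3 members (Syn2, Syt13 and Syt16) and 4.94% of all genes were found. The interaction of Syn2 was the clearest, at 1.16 on the log2 scale (SE 0.28, 95% interval 0.55 to 1.78, limma adjusted p = 0.365).

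The median log2 difference of the 48 tested members was 0.27 at 24 h, against 0.06 for all genes tested. At that time 34 members lay above 0 and 14 below, while of all 10295 genes 5810 lay above and 4485 below. At 48 h the median was 0.15 against 0.06, with 29 members above and 19 below. Of all genes, 5897 then lay above 0 and 4398 below. At 24 h the arrays of the groups did not overlap for 12 members higher (25%) and 3 lower (6.25%) with Fezf2GFP, against 12.6% and 7% of all genes (19.6% in either direction). At 48 h this held for 6 higher (12.5%) and 0 lower, against 7.35% and 1.72% (9.07% in either direction). The 2 vector comparisons use different arrays.

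Several members had large differences at 24 h that did not pass. Syn3, at 1.29 (limma adjusted p = 0.464), Syt1, at 1.17 (0.515), Snap25, at 1.11 (0.536), and Snap91, at 1.08, were among them. Their values at 48 h were 0.17, 1.09, -0.06 and 0.36. Sv2a did not overlap between the vectors at either time, with 0.72 (limma adjusted p = 0.532) and 0.90 (0.119). Between the vectors, 12 of 12 syntaxins, 6 of 6 syntaxin binding genes, 4 of 4 Vamp genes and 4 of 4 Rab3 genes did not pass at either time, though another Rab3c probe set was lower at 48 h (-0.86, limma adjusted p over all probe sets 0.0459).

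**Figure D2:**
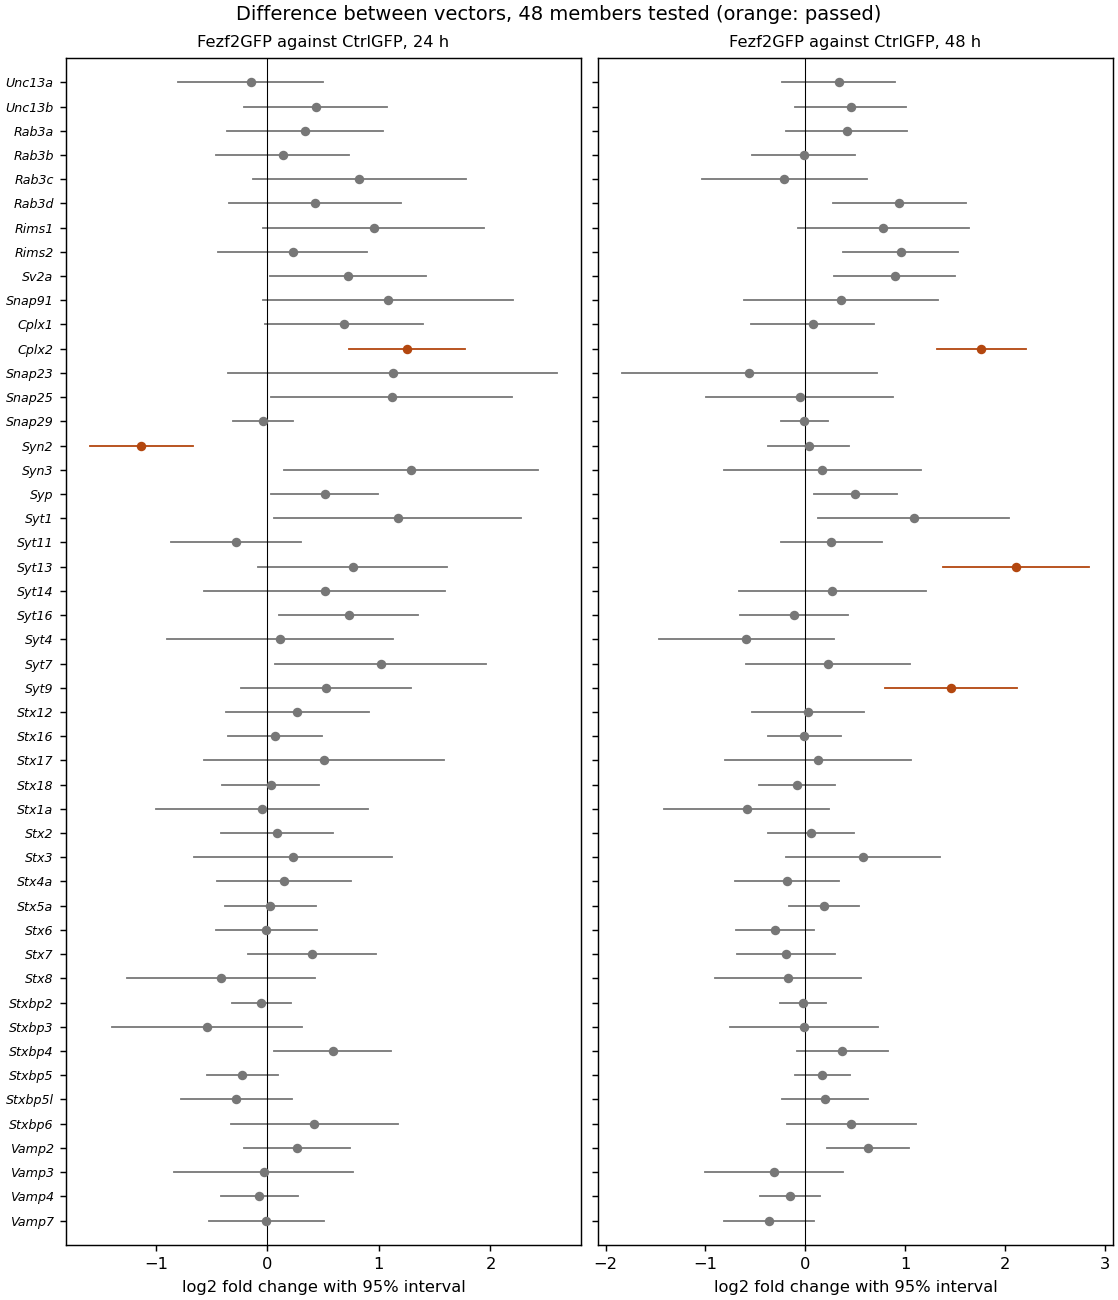
Log2 difference of Fezf2GFP from CtrlGFP with its 95% interval for the 48 tested members, at 24 h and at 48 h; orange marks the members that passed. Cplx2 and Syn2 passed at 24 h and Cplx2, Syt13 and Syt9 at 48 h, while most intervals include 0.

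Between 24 h and 48 h many more members changed. The vesicle SNARE Vamp2, the calcium sensor Syt1, Cplx1, Sv2a, Syn3, Rims1 and Rab3c were higher at 48 h with both vectors, and the plasma membrane SNAREs Snap25 and Stx1a passed with CtrlGFP. With CtrlGFP, 15 of 48 tested members passed as higher (31.2%, or 21.4% of all 70) and 2 as lower, against 5.88% and 6.69% of all genes tested (12.6% in either direction). With Fezf2GFP, 12 passed as higher (25%, or 17.1% of all 70) and 0 as lower, against 6.38% and 5.67% (12.1% in either direction). The median change of the members was 0.25 with CtrlGFP and 0.37 with Fezf2GFP on the log2 scale, against -0.02 and -0.01 for all genes. Without overlap between the arrays, 16 members were higher (33.3%) and 3 lower (6.25%) with CtrlGFP (9.93% and 12.8% of all genes, 22.7% in either direction), and 15 higher (31.2%) and 4 lower (8.33%) with Fezf2GFP (13.3% and 12.9%, 26.2% in either direction). In sorted pools, fewer cells of a type and less RNA per cell cannot be told apart.

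The lists of the vectors overlapped in 9 members: Cplx1, Rab3a, Rab3c, Rims1, Sv2a, Syn3, Syt1, Syt16 and Vamp2. They make up 60% of the CtrlGFP list and 75% of the Fezf2GFP list, and 3.46% of all genes passed as higher with both vectors. These time comparisons share no arrays, and 40 of 48 members had the same sign in both. The share of all genes with the same sign was not computed, so this count has no background to be read against. Snap25, Snap91, Stx1a, Stx7, Syp and Syt4 passed with CtrlGFP and not with Fezf2GFP, and Rab3d, Stx3 and Stxbp5 the other way round. No interaction passed, so none of these is shown to differ between the vectors. The split also depends on the probe set. Another of Stx1a passed with both vectors (1.51 and 1.29, limma adjusted p over all probe sets 0.00871 and 0.0216). So did another of Rab3d (1.28 and 1.44, 0.00945 and 0.00586), while another of Snap25 passed with neither (1.29 and 1.45, 0.148 and 0.102).

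**Figure D3:**
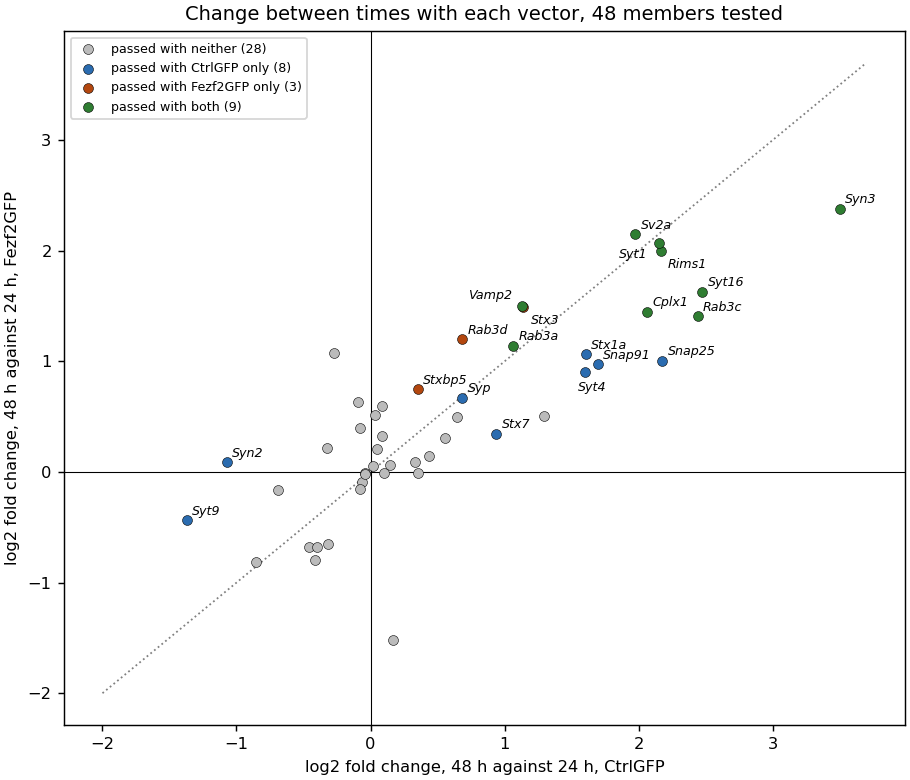
Log2 change from 24 h to 48 h with CtrlGFP (horizontal) and with Fezf2GFP (vertical) for the 48 tested members, coloured by the vector with which they passed; the dotted line marks equal change. The 9 members that passed with both lie at the upper right, and Syn2 and Syt9 lie left of 0.

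Among the SNARE proteins, Vamp2, the vesicle SNARE of neurons, read 8.89, 9.06 and 9.05 with CtrlGFP at 24 h and 9.81, 10.52, 9.99 and 10.22 at 48 h. Its Fezf2GFP values were 9.68, 9.02 and 9.09, then 10.82, 10.52, 10.75 and 10.97. The times did not overlap with either vector. Vamp2 rose by 1.13 with CtrlGFP (SE 0.21, limma adjusted p = 0.00295) and by 1.50 with Fezf2GFP (SE 0.21, limma adjusted p = 0.000662), and both calls ended with the mean of all its probe sets (0.0723 and 0.0648). The other 3 tested Vamp genes, Vamp3, Vamp4 and Vamp7 of the endosomal and Golgi pathways, did not pass with either vector, with changes from -0.68 to 0.35.

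Snap25, the plasma membrane SNARE that lends the family its name, read 7.07, 8.52 and 8.90 with CtrlGFP at 24 h and 10.97, 9.20, 10.14 and 11.05 at 48 h. In the Fezf2GFP arrays the values were 9.30, 9.20 and 9.34, then 10.53, 9.96, 9.93 and 10.72. The times did not overlap, CtrlGFP 24 h replicate 1 was the lowest array, and CtrlGFP 48 h replicate 2 was the lowest of its group. Snap25 rose by 2.18 with CtrlGFP (SE 0.47, limma adjusted p = 0.00779), and its change of 1.01 with Fezf2GFP did not pass (SE 0.47, limma adjusted p = 0.207). In a fit of only the groups compared the CtrlGFP call ended (0.069). The other Snap25 probe set, above the dim level on 14 arrays, gave 1.29 with CtrlGFP and 1.45 with Fezf2GFP. Neither passed over all probe sets (limma adjusted p = 0.148 and 0.102). Its broadly expressed relatives Snap23 and Snap29 did not pass, with changes of 0.17 and -0.04 with CtrlGFP and of -1.52 and -0.01 with Fezf2GFP. A further Snap23 probe set passed as lower with Fezf2GFP (-0.63, limma adjusted p over all probe sets 0.0389).

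Stx1a, the neuronal syntaxin that pairs with Snap25, read 9.46, 9.75 and 9.57 with CtrlGFP at 24 h and 11.30, 11.70, 10.71 and 11.10 at 48 h. With Fezf2GFP it read 9.84, 9.23 and 9.57, then 11.47, 10.79, 10.95 and 9.24. The CtrlGFP times were apart, whereas Fezf2GFP 48 h replicate 4 lay among the 24 h values. Stx1a rose by 1.61 with CtrlGFP (SE 0.41, limma adjusted p = 0.021), and its change of 1.06 with Fezf2GFP did not pass (limma adjusted p = 0.123). Leaving out CtrlGFP 24 h replicate 1 (0.0702), 2 (0.0513) or 3 (0.0624) ended the call, as did leaving out CtrlGFP 48 h replicate 1 (0.051).

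Stx3, a plasma membrane syntaxin found at ribbon synapses and in polarised cells, read 4.12, 4.94 and 4.85 with CtrlGFP at 24 h and 6.63, 4.97, 5.16 and 6.34 at 48 h. The Fezf2GFP arrays gave 4.89, 4.66 and 5.05, then 6.31, 6.51, 6.76 and 5.84. The times did not overlap with either vector, though CtrlGFP 48 h replicate 2 came close to the 24 h values. Stx3 rose by 1.49 with Fezf2GFP (SE 0.38, limma adjusted p = 0.0229), and its change of 1.14 with CtrlGFP did not pass (limma adjusted p = 0.0727). The call ended without any 1 of 5 arrays labelled Fezf2GFP, namely 24 h replicate 1 (0.0602), 2 (0.0975) or 3 (0.0624) and 48 h replicate 2 (0.057) or 3 (0.0653). Stx7, a late endosomal syntaxin, rose by 0.94 with CtrlGFP (SE 0.25, limma adjusted p = 0.0241), a call lost on leaving out CtrlGFP 24 h replicate 1 (0.108) or CtrlGFP 48 h replicate 1 (0.0693) or 4 (0.0639). The other 9 tested syntaxins passed with neither vector, among them the Golgi syntaxins Stx5a, Stx6 and Stx16 and the endoplasmic reticulum syntaxin Stx18, whose changes lay between -0.01 and 0.44.

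Among the syntaxin binding genes, Stxbp5 encodes tomosyn, which competes with the vesicle SNARE for its partners and restrains release. It read 7.21, 7.15 and 7.09 with CtrlGFP at 24 h and 7.76, 7.45, 7.37 and 7.44 at 48 h. Its Fezf2GFP values were 7.01, 6.99 and 6.79, then 7.59, 7.81, 7.65 and 7.66. The times were apart with both vectors, by little in the CtrlGFP arrays. Stxbp5 rose by 0.75 with Fezf2GFP (SE 0.14, limma adjusted p = 0.00384), and its change of 0.35 with CtrlGFP did not pass (limma adjusted p = 0.124). Averaging all its probe sets ended the call (0.418), since the other one disagreed. The other 5 tested genes of the family did not pass.

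Of the 8 tested synaptotagmins, Syt1, the calcium sensor of fast synchronous release, read 6.70, 5.83 and 5.04 with CtrlGFP at 24 h and 9.17, 7.32, 7.45 and 8.08 at 48 h. In the Fezf2GFP arrays the values were 7.70, 6.30 and 7.08, then 9.56, 8.77, 9.01 and 9.03. The times did not overlap with either vector. Syt1 rose by 2.15 with CtrlGFP (SE 0.48, limma adjusted p = 0.00963) and by 2.07 with Fezf2GFP (SE 0.48, limma adjusted p = 0.0132). The first call ended without CtrlGFP 24 h replicate 3 (0.0514) and in a fit of only the groups compared (0.0563), and the second without Fezf2GFP 24 h replicate 2 (0.079).

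Syt16 encodes an atypical synaptotagmin without a calcium site, and it read 8.23, 8.11 and 7.56 with CtrlGFP at 24 h and 10.84, 10.30, 10.29 and 10.33 at 48 h. With Fezf2GFP it read 9.45, 8.36 and 8.27, then 10.44, 10.38, 10.18 and 10.31. All 8 arrays at 48 h stood above all 6 at 24 h. Syt16 rose by 2.47 with CtrlGFP (SE 0.27, 5.56-fold, limma adjusted p = 0.00017) and by 1.63 with Fezf2GFP (SE 0.27, limma adjusted p = 0.00211), and both calls held in 26 of 26 alternatives. Its vector difference at 24 h, 0.73, did not pass although the groups were apart (limma adjusted p = 0.432). Syt4, which lacks calcium binding in its first C2 domain and sits on dense-core and other organelles, rose by 1.60 with CtrlGFP (SE 0.44, limma adjusted p = 0.0299), a call lost on leaving out CtrlGFP 24 h replicate 1 (0.138) or 2 (0.0504), or CtrlGFP 48 h replicate 1 (0.0828), 3 (0.0507) or 4 (0.0771). Syt7, the slow sensor of asynchronous release, Syt11 and Syt14 passed with neither vector, with changes of 1.29, -0.32 and 0.55 with CtrlGFP. Another Syt7 probe set, above the dim level on 14 of 14 arrays, passed over all probe sets, at 2.28 with CtrlGFP (limma adjusted p = 0.00207) and 1.51 with Fezf2GFP (0.0209), so the Syt7 probe sets disagree.

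The windows of Syt16, Sv2a and Cplx1 are shown because these members rose with time in nearly every alternative and hold both motifs. Capitals mark the same motifs as above.
Syt16, chr12:73997527-73997826, plus strand: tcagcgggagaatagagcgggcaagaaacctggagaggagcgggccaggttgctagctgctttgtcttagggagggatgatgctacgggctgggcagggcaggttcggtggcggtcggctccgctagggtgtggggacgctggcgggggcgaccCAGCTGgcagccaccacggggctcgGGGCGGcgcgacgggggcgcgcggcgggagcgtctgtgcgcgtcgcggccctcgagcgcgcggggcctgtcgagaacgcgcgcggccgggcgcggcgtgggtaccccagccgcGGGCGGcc
Sv2a, chr3:96180977-96181276, plus strand: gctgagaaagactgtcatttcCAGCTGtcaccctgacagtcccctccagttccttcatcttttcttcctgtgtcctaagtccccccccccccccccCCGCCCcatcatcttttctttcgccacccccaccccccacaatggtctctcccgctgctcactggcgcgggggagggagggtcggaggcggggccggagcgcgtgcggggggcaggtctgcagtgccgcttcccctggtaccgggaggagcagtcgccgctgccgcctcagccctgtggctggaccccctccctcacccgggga
Cplx1, chr5:108549978-108550277, minus strand: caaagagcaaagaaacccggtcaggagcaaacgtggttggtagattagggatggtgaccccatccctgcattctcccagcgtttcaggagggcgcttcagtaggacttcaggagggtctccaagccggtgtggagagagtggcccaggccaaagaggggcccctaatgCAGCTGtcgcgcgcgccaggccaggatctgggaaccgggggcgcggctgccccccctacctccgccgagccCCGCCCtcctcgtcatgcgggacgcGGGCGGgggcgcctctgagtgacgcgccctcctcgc
Of 55 members with a RefSeq window, 18 held CAGCTG (32.7%), against 18.3% of 27025 genes and 17.2% of tested genes with a window. Among the members that rose with either vector, 9 of the 14 with a window held it (64.3%), as did 5 of 25 other tested members and 25.4% of the 693 windows of all genes that rose. GGGCGG was present in 78.2% of member windows, 71.3% of tested genes and 38.2% of all genes. The E-box CAGATG was present in 10.9%, 12.8% and 19.2%, and the cAMP response element TGACGTCA, TATAAA and the left and right parts of the RE1 element were in 4 or fewer member windows each. All motifs were searched on both strands and chosen with the results known, so these shares are a description without a test.

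Cplx1, the complexin that predominates at many fast synapses, read 8.47, 8.53 and 8.42 with CtrlGFP at 24 h and 11.25, 10.09, 10.46 and 10.36 at 48 h. The Fezf2GFP arrays gave 9.70, 8.71 and 9.08, then 11.03, 10.59, 10.81 and 10.02. The times were apart with both vectors. Cplx1 rose by 2.06 with CtrlGFP (SE 0.31, limma adjusted p = 0.00092) and by 1.45 with Fezf2GFP (SE 0.31, limma adjusted p = 0.00814), the second call ending without Fezf2GFP 24 h replicate 2 (0.052). Its vector differences of 0.69 and 0.07 did not pass. Cplx2 showed the other pattern, with time changes of 0.09 with CtrlGFP and 0.60 with Fezf2GFP that did not pass (limma adjusted p = 0.884 and 0.11).

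Sv2a, a vesicle membrane glycoprotein and the target of the antiepileptic drug levetiracetam, read 6.48, 7.08 and 7.07 with CtrlGFP at 24 h and 8.90, 8.67, 8.92 and 8.91 at 48 h. Its Fezf2GFP values were 8.34, 7.20 and 7.27, then 10.10, 9.07, 9.78 and 10.05. The order of the groups was clear, with every 48 h array above every 24 h array. Sv2a rose by 1.97 with CtrlGFP (SE 0.30, limma adjusted p = 0.00106) and by 2.15 with Fezf2GFP (SE 0.30, limma adjusted p = 0.000806), and both calls held in 26 of 26 alternatives. Syp, the vesicle protein synaptophysin, changed by 0.68 with CtrlGFP (SE 0.21, limma adjusted p = 0.0475) and by 0.67 with Fezf2GFP (limma adjusted p = 0.0528), values on either side of the threshold. The Syp call held in 8 of 26 alternatives, and 12 of the 14 single arrays ended it when left out (0.0522 to 0.165), the exceptions being CtrlGFP 48 h replicate 1 and Fezf2GFP 24 h replicate 1.

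Syn3, which encodes a synapsin known for its presence in immature neurons, had the largest change of any tested member. It read 5.33, 7.18 and 6.60 with CtrlGFP at 24 h and 10.82, 9.73, 8.91 and 10.04 at 48 h. In the Fezf2GFP arrays the values were 8.25, 7.28 and 7.46, then 10.87, 9.82, 9.66 and 9.82. The times did not overlap, and CtrlGFP 24 h replicate 1 was the lowest array. Syn3 rose by 3.50 with CtrlGFP (SE 0.49, 11.3-fold, limma adjusted p = 0.000614) and by 2.38 with Fezf2GFP (SE 0.49, limma adjusted p = 0.0071), and its other probe set gave 2.03 and 1.58, which did not pass (0.0543 and 0.137). Syn1 lay below the dim level on every array, at 2.25 to 3.58.

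Rims1 encodes an active zone scaffold that binds Rab3 and Munc13. It read 4.87, 5.58 and 3.71 with CtrlGFP at 24 h and 7.60, 6.20, 6.44 and 7.32 at 48 h. With Fezf2GFP it read 5.96, 5.52 and 5.54, then 8.12, 7.77, 7.66 and 7.12. The times were apart, with 1 of the 3 CtrlGFP arrays at 24 h below the dim level. Rims1 rose by 2.17 with CtrlGFP (SE 0.43, limma adjusted p = 0.00486) and by 1.99 with Fezf2GFP (SE 0.43, limma adjusted p = 0.00861), in 26 of 26 alternatives. Rims2 did not pass between the times, with changes of -0.09 and 0.64. Between the vectors at 48 h its brightest probe set gave 0.95 and did not pass, while 2 others, above the dim level on 14 of 14 arrays, passed over all probe sets with 1.52 (limma adjusted p = 0.00552) and 1.28 (0.0216).

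The Rab3 proteins are small GTPases on secretory vesicles. Rab3c read 8.17, 8.78 and 9.09 with CtrlGFP at 24 h and 11.79, 9.86, 11.17 and 11.67 at 48 h. The Fezf2GFP arrays gave 9.92, 9.49 and 9.11, then 11.10, 10.66, 10.55 and 11.35. The times were apart, and CtrlGFP 48 h replicate 2 was again the lowest of its group. Rab3c rose by 2.44 with CtrlGFP (SE 0.41, limma adjusted p = 0.00185), in 26 of 26 alternatives, and by 1.41 with Fezf2GFP (SE 0.41, limma adjusted p = 0.0419), which 9 of the 14 single arrays ended when left out (0.0525 to 0.179), namely all 7 labelled Fezf2GFP, CtrlGFP 24 h replicate 2 and CtrlGFP 48 h replicate 3. Rab3a, the main neuronal form, rose by 1.06 with CtrlGFP (SE 0.30, limma adjusted p = 0.0354) and by 1.14 with Fezf2GFP (SE 0.30, limma adjusted p = 0.0259), each call ended by 6 single arrays. These were CtrlGFP 24 h replicates 1, 2 and 3, CtrlGFP 48 h replicates 3 and 4 and Fezf2GFP 24 h replicate 2 for the first (0.0507 to 0.0949), and Fezf2GFP 24 h replicates 1, 2 and 3 and 48 h replicates 2, 3 and 4 for the second (0.0561 to 0.109). Rab3d rose by 1.20 with Fezf2GFP (SE 0.33, limma adjusted p = 0.0325), a call ended without Fezf2GFP 24 h replicate 2 or 3 or 48 h replicate 1, 3 or 4 (0.0507 to 0.164). Rab3b passed with neither. The other Rab3a probe set, above the dim level on 14 arrays, gave 0.91 with CtrlGFP and 0.42 with Fezf2GFP. Neither passed over all probe sets (limma adjusted p = 0.0717 and 0.473). Snap91, the clathrin assembly protein AP180 of vesicle recycling, rose by 1.69 with CtrlGFP (SE 0.49, limma adjusted p = 0.0367). That call ended without CtrlGFP 24 h replicate 1 or 2, CtrlGFP 48 h replicate 1, 3 or 4, Fezf2GFP 24 h replicate 2 or Fezf2GFP 48 h replicate 2 (0.0504 to 0.159), the Fezf2GFP arrays entering through the shared spread.

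The Munc13 proteins, which open syntaxin and prime vesicles, had no member that passed in any comparison. Unc13b, the brighter, read 9.71, 10.55 and 10.55 with CtrlGFP at 24 h, 10.56, 10.90 and 10.64 with Fezf2GFP at 24 h, 10.53, 9.72, 9.99 and 10.69 with CtrlGFP at 48 h, and 11.12, 10.39, 10.60 and 10.64 with Fezf2GFP at 48 h. At 24 h the CtrlGFP values lay just below all Fezf2GFP values, and at 48 h the vectors overlapped. Its changes with time were -0.04 and -0.02, and its vector differences 0.43 and 0.45 (limma adjusted p = 0.707 and 0.456).

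**Figure D4:**
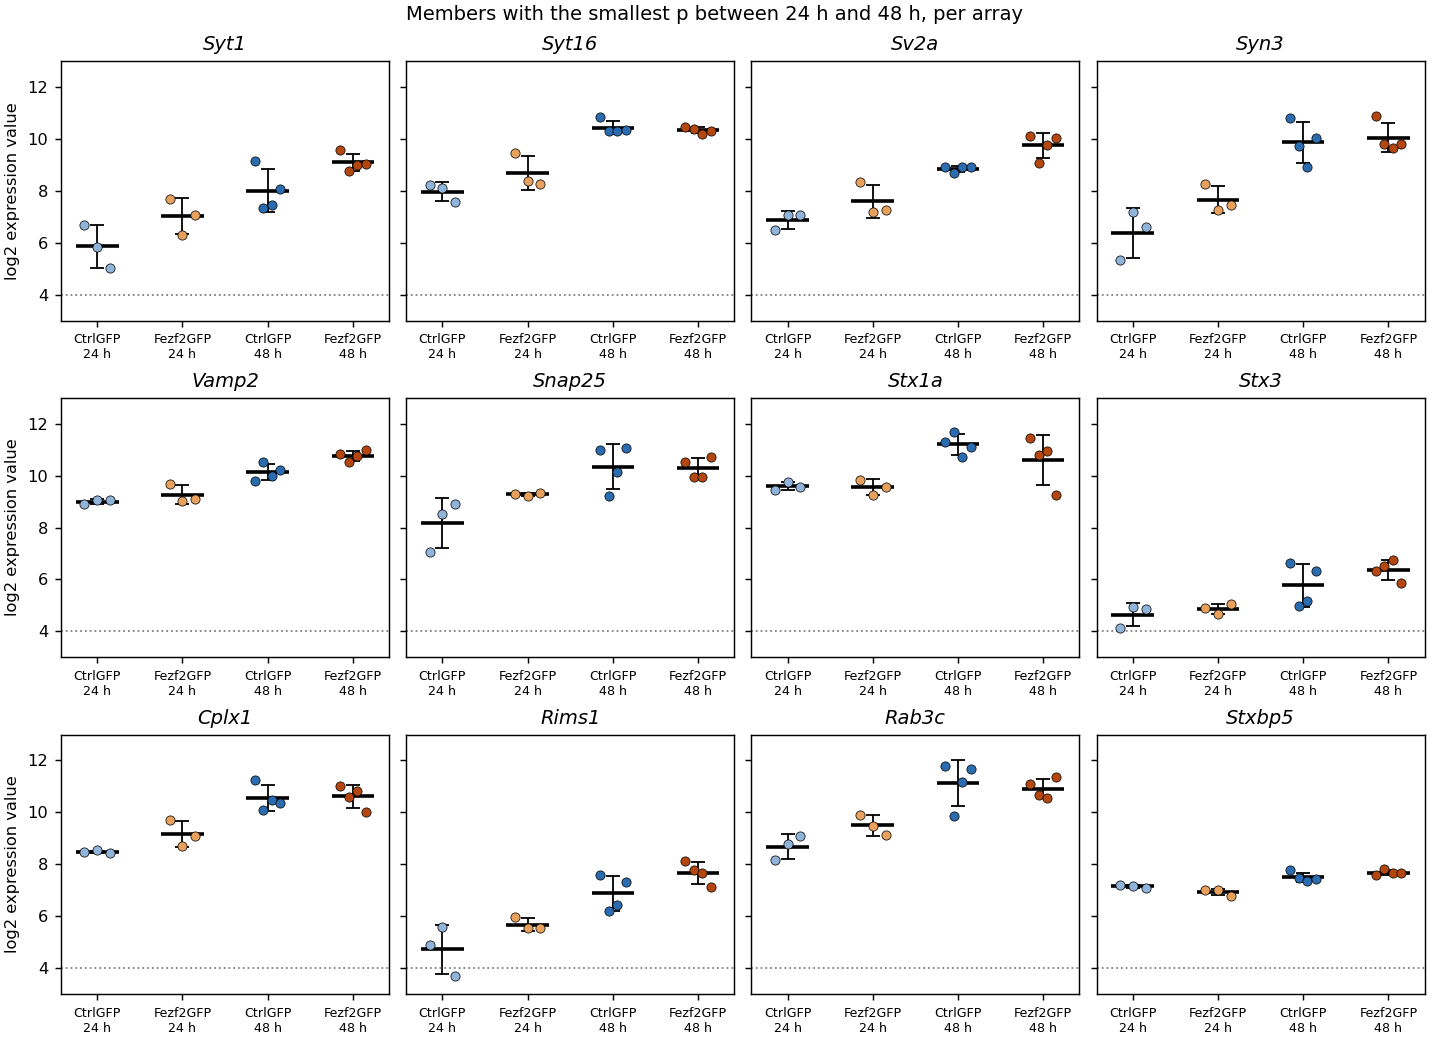
The 12 members that passed only between the times with the smallest p, as log2 expression values of each array (points) by group, with the mean (bar) and SD (error bar); the dotted line is the dim level of 4, and levels are not to be compared between panels. For Syt16, Sv2a and Syn3 every 48 h array lies above every 24 h array, while for Stx1a 1 Fezf2GFP array at 48 h lies among those at 24 h.

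In all, 22 members passed in at least 1 comparison and 26 tested members in none. Of the 22 members set aside, 17 were never above the dim level: Cplx3, Cplx4, Rims4, Stx19, Sv2b, Sv2c, Syn1, Syt10, Syt12, Syt17, Syt2, Syt3, Syt6, Syt8, Unc13c, Unc13d and Vamp1. The other 5 (Rims3, Stx11, Syt5, Vamp5 and Vamp8) exceeded it on 1 or 2 arrays, Syt5 with values from 3.12 to 6.29. Nothing is said of change in these 22.

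A wider presynaptic list had 38 tested genes. Between the vectors, 1 of them passed at 24 h, Lin7a, an adaptor of presynaptic scaffolds (1.84, SE 0.32, limma adjusted p = 0.0119). At 48 h, 2 passed: the vesicle priming protein Cadps2 (1.54, SE 0.28, limma adjusted p = 0.0103) and Vat1l (1.68, SE 0.41, limma adjusted p = 0.0421). These are 2.63% and 5.26% of the list, against 0.806% and 2.7% of all genes passing as higher. Between the times, 12 passed as higher and 2 as lower with CtrlGFP (31.6% and 5.26%, against 5.88% and 6.69% of all genes), and 14 and 1 with Fezf2GFP (36.8% and 2.63%, against 6.38% and 5.67%). The smallest p belonged to Ppfia2 (2.72), Lin7a (2.33) and Sh3gl2 (2.41) with CtrlGFP, and to Scamp5 (1.22), Cadps (1.67) and Syngr1 (1.57) with Fezf2GFP. Cadps2 fell by 1.64 and by 1.57.

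Markers of cell state moved with time as well. In units of 1000 on the linear scale, the summed level of 14 neuronal markers was 71.6 to 95.6 with CtrlGFP and 90.7 to 93.1 with Fezf2GFP at 24 h, and 102 to 129 and 113 to 138 at 48 h. Of the 12 tested, 4 passed as higher with CtrlGFP (Mapt, Stmn2, Gap43 and Tubb3) and 4 with Fezf2GFP (Mapt, Gap43, Stmn2 and Neurod2), and 0 between vectors. That is 33.3% with each vector, against 5.88% and 6.38% of all genes. Of the 8 intermediate progenitor markers, 6 fell with CtrlGFP (75%) and 5 with Fezf2GFP (62.5%), against 6.69% and 5.67% of all genes, and their sum went from 78.1 to 84.3 and 64.4 to 75.7 down to 48.2 to 61.1 and 52.3 to 59 . The 10 radial glia markers summed to 90.2 to 103 and 97.9 to 110 at 24 h, and to 59.4 to 79.8 and 66.5 to 94.8 at 48 h, and 2 (20%) fell with CtrlGFP. Between the vectors at 48 h, 1 of the 10 radial glia markers passed as higher and 1 as lower (10% each). Of the 8 intermediate progenitor markers, 0 passed as higher and 1 as lower (12.5%). All genes gave 2.7% as higher and 0.427% as lower. At 24 h, 0 markers of these 2 lists passed between the vectors. The part of the cell state markers in the rise of the vesicle genes was not tested.

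GABAergic neuron markers, of which 0 of 9 tested passed, summed to 2.2 in CtrlGFP 48 h replicate 1 and 1.96 in Fezf2GFP 24 h replicate 1, against 0.162 to 1.71 elsewhere. These arrays were also the highest of their groups for Syt1, Syn3, Cplx1 and Syt16, which were picked from the members. Other members differed: for Rab3a (9.93), Rab3d (8.61) and Vamp2, CtrlGFP 48 h replicate 1 was the lowest of its group. Leaving out both arrays with the highest GABAergic sums ended the 24 h vector calls of Cplx2 (limma adjusted p = 0.115) and Syn2 (0.118). The CtrlGFP time calls of Snap91 (0.12), Stx1a (0.0659), Stx7 (0.0864) and Syt4 (0.0909) ended too, as did the Fezf2GFP time call of Rab3a (0.0636). The other calls held without them, and the part of these cells in the result was not tested. Cajal-Retzius markers summed to 1.75 to 3.4 with Fezf2GFP at 48 h and 0.126 to 1.8 elsewhere, with Calb2 passing at 48 h while Trp73, Lhx5 and Lhx1 were dim on every array. Blood and endothelial markers reached 14.1 in CtrlGFP 24 h replicate 1 and at most 1.03 elsewhere. Olig1 and Olig2 passed as higher with CtrlGFP between the times. Of the microglial markers 7 of 8 were dim on every array, as were 5 of 5 of mesenchyme.

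**Figure D5:**
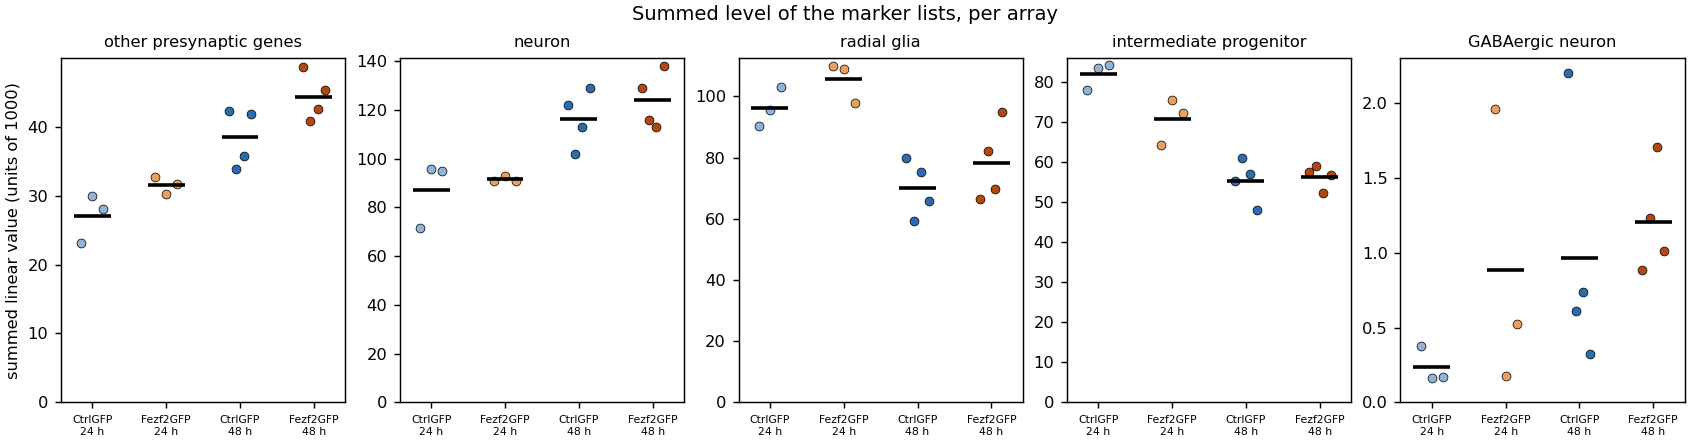
Summed linear expression level (units of 1000) of the wider presynaptic list and of 4 marker lists for each array (points) by group, with the group mean (bar). Neuronal sums are higher and intermediate progenitor sums lower at 48 h, and the GABAergic sums are highest in CtrlGFP 48 h replicate 1 and Fezf2GFP 24 h replicate 1.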

How the data were processed

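The deposited log2 expression values were made by the authors with GCRMA, per the submitters' processing notes, which state no version. Per the labels, the RNA had passed through 2 rounds of linear amplification and was hybridized to Affymetrix mouse arrays. Background correction and normalization are thus the authors' own, scanner files not having been used. Precision is limited by the number of arrays and, for dim genes, by signal over background.

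Of 45037 probe sets, 34945 carried exactly 1 gene symbol. The brightest on average over the 14 arrays stood for each of 18193 symbols. The 70 members have 167 probe sets, and 48 of them have several, up to 6. A gene above 4 in at least 3 arrays was tested. Group means were estimated in 1 fit of all 14 arrays (lmFit and eBayes of limma 3.58.1, R 4.3.3), leaving 10 residual degrees of freedom, and p-values were adjusted by Benjamini-Hochberg over all 10295 genes tested. SE is limma's standard error, and intervals are at 95%. Where all arrays of a group were dim, a bound was taken, using 4 or the array's value if that was higher. The fit was tested on simulated data.

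The members, the wider presynaptic list, the markers and the motifs were chosen with earlier results of these data known. Values in every array are given for members that passed between vectors, the 12 with the smallest p that passed only between times, the 3 with the smallest unadjusted p in each vector comparison, and the brightest member of a family in which none passed. Of the wider list, up to 3 passing genes per comparison are named. Genes named outside this rule were chosen after their values were seen. Symbols were matched by gene ID to RefSeq, assembly GRCm38.p6, and 0 changed, and the printed coordinates are those of the RefSeq windows. Alternatives covered the filter, normalization, weights, probe set choice, gene span, replicate number and each array left out.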

Additional observations from a re-analysis of the deposited data

Results flagged for a closer look

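Single arrays that lay far from the rest of their group of 4 were looked for in 34 groups of values of the named members at 48 h, where chance gives about 1.7. There were 4. Syt9 read 4.06 in CtrlGFP 48 h replicate 2, against 5.30 to 5.51 in the other 3 arrays. In the same array Sv2a read 8.67, against 8.90 to 8.92. Syt16 read 10.84 in CtrlGFP 48 h replicate 1, against 10.29 to 10.33. Syn3 read 10.87 in Fezf2GFP 48 h replicate 1, against 9.66 to 9.82. The difference of Syt9 between the vectors at 48 h still passed without CtrlGFP 48 h replicate 2, and the time calls of Sv2a, Syt16 and Syn3 held without the array named.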

How the results depend on the processing

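The number of members passing between vectors at 24 h, 2, was 1 with quantile normalization, with only the groups compared, with the probe sets without a suffix, with the trend on gene span removed and without CtrlGFP 24 h replicate 1 and CtrlGFP 48 h replicate 2 together. In these settings 0.612% to 1.28% of all genes passed. The count of members was 0 with the mean of all probe sets (1.04% of all genes). It was also 0, in an alternative added after seeing the data, without the arrays highest in GABAergic markers (0.408%). Array weights, whose estimate did not converge, gave 9 at 24 h, 3 for the interaction (0 otherwise) and 28 for the change with Fezf2GFP (12). With these weights 19.7%, 2.33% and 30.4% of all genes passed in the same comparisons. The change with CtrlGFP, 17 members, was 10 in a fit of only the groups compared, against 7.74% of all genes. Leaving out 1 array gave 0 to 2 at 24 h, 2 to 3 at 48 h, 0 to 0 for the interaction, 11 to 17 with CtrlGFP (11 without CtrlGFP 24 h replicate 2) and 6 to 14 with Fezf2GFP (6 without Fezf2GFP 24 h replicate 2). In the same order, 0.486% to 1.6%, 1.83% to 3.62%, 0% to 0.117%, 8.85% to 14% and 6.25% to 13.9% of all genes passed. The causes were not tested, and a fit with arrays left out also has fewer samples. With the gene span trend removed, counts were 3 at 48 h, 0 for the interaction, 18 with CtrlGFP and 15 with Fezf2GFP. The shares of all genes were 2.53%, 0.0487%, 13.9% and 12.7%. No direction of a called member reversed. The mean of all probe sets gave 4 members at 48 h, against 3.61% of all genes. With the replicate number as a block, the call of Cplx2 at 24 h, those of Rab3a, Snap91, Stx7, Syp and Syt4 with CtrlGFP and those of Rab3c, Rab3d and Stx3 with Fezf2GFP did not pass (limma adjusted p 0.0615 to 0.101). Counts were then 1 and 3 between vectors, 0 for the interaction, 13 with CtrlGFP and 10 with Fezf2GFP. Between vectors, the deviations of same-numbered samples from their group means correlated at -0.00597 to 0.318 (24 h) and -0.0558 to 0.286 (48 h). Between times, these deviations correlated at -0.399 to 0.193 with CtrlGFP and at -0.213 to -0.102 with Fezf2GFP. The numbers are therefore not shown to pair the samples. With that block, 0.787% and 2.25% of all genes passed between vectors, 0% for the interaction, 9.97% with CtrlGFP and 10.2% with Fezf2GFP. All genes had a median log2 difference between vectors of 0.0559 at 24 h and 0.0635 at 48 h in the main fit. After median centring it was 0.129 and 0.107. It was -0.0292 and 0.0202 with quantile normalization, and -0.0517 and -0.0399 with the gene span trend removed. The size and sign of this background thus depend on the processing.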
